A study of Mus musculus with 8 samples.

Results

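The G1 cyclins, their kinases and Rb1 were followed in corticotroph tumor cells as 10 genes chosen by name: the D-type cyclins *Ccnd1*, *Ccnd2* and *Ccnd3*, the E-type cyclins *Ccne1* and *Ccne2*, the kinases *Cdk2*, *Cdk4* and *Cdk6*, the retinoblastoma gene *Rb1* and the phosphatase *Cdc25a*. They were found through the RefSeq accession of each probe, and they are 10 of 19751 gene symbols with a probe on the array. The 10 genes had 14 probes, of which 11 probes of 7 genes could be tested, among 15319 genes tested in all. RNA came from AtT20 cells, a mouse line of ACTH-secreting pituitary corticotroph tumor cells, with 1 Agilent array for each sample. The 4 control samples were kept for 48 hr without HX630, and the 4 HX630 samples for 48 hr with HX630 at 10 μM. HX630, a synthetic compound, activates the RXRs, nuclear receptors that bind DNA in pairs with themselves or with other nuclear receptors. Both groups were kept in medium with stripped serum during the incubation, so the controls share the change from regular medium. A single tumor line was used, and the labels do not say whether the samples of a group came from separate cultures, so p-values measure only the spread between these samples, which may be technical.

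In G1 phase, mitogens raise the D-type cyclins, which bind and activate Cdk4 or Cdk6. These kinases phosphorylate the Rb1 protein, which otherwise holds the E2F transcription factors inactive, and freed E2F drives the E-type cyclins, *Cdc25a* and the genes of DNA synthesis. Cyclin E activates Cdk2, which phosphorylates Rb1 further, and Cdc25a removes the inhibitory phosphates from Cdk2. In the pituitary this pathway is best known from mice heterozygous for a loss of *Rb1*, which develop tumors of the intermediate lobe.

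The bases before the transcription start are shown for the genes whose message moved most in either direction, *Ccne1* and *Cdk2* upward and *Ccnd3* downward, and for *Cdc25a*, since it and *Cdk2* hold E2F letters. RefSeq (GRCm38.p6) gave windows for 6 of the 10 genes, 7 windows in all because *Ccnd3* has 2 annotated starts, and each window holds the 250 bases before the start, with the base just before the start counted as -1. Windows were searched on both strands for E2F letters (TTTCCCGC, TTTCGCGC, TTTGCCGC or TTTGGCGC), the nuclear receptor half-site AGGTCA, the GC box GGGCGG, the E-box CACGTG, the AP-1 letters TGACTCA or TGAGTCA and the CRE letters TGACGTCA. Capitals mark E2F letters, half-sites and GC boxes.
Ccne1, chr7:38107491-38107740, minus strand: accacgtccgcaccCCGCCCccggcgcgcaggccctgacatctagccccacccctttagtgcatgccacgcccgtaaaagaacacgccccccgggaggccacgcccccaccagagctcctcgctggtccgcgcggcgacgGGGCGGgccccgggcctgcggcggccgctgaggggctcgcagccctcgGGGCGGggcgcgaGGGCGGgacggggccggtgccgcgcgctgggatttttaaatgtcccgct
Cdk2, chr10:128705052-128705301, minus strand: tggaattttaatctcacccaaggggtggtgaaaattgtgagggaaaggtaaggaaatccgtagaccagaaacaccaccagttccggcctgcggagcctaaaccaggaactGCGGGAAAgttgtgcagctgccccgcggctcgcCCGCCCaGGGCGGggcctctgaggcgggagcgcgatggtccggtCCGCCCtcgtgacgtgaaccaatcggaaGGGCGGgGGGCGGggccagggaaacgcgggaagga
Cdc25a, chr9:109875329-109875578, plus strand: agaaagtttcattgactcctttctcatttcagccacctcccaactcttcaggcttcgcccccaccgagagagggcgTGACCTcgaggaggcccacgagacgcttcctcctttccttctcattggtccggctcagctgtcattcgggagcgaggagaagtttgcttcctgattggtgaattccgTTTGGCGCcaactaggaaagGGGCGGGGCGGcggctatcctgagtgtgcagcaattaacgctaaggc
Ccnd3, first start, chr17:47504801-47505050, plus strand: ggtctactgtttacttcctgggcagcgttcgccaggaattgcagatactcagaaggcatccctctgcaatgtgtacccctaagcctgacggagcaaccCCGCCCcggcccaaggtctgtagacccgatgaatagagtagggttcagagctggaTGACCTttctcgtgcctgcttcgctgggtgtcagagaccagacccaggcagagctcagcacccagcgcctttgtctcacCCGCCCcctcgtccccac
Ccnd3, second start, chr17:47593217-47593466, plus strand: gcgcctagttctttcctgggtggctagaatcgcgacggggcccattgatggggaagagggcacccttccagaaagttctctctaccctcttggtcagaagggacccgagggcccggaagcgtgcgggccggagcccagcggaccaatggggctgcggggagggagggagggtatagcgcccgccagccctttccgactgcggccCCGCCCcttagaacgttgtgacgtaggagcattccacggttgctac

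E2F letters stood in the windows of *Cdk2* (TTTCCCGC on the opposite strand, bases -140 to -133) and *Cdc25a* (TTTGGCGC, bases -67 to -60), and in 1.86% of 32851 windows of all genes. The half-site AGGTCA stood in the window of *Cdc25a* (bases -174 to -169), in that of the first start of *Ccnd3* (bases -97 to -92) and in that of *Cdk4* (bases -102 to -97, sharing 2 bases with an E-box), against 14.0% of all windows. A direct repeat of this half-site with 1 base between the copies, the arrangement best known for pairs of RXR with PPAR, was in none of the 7 windows and in 0.0335% of all. GC boxes were in 6 of the 7 windows, against 32.7% of all windows. The window of *Ccne1* held 4 of them and that of *Cdk2* 5, and the 2 GC boxes of *Cdc25a* share 1 base. All 7 windows held more G and C than the median of all windows (52.4%), from 56.4% in *Cdc25a* to 76.0% in *Ccne1*. The GC boxes were not set against windows of like composition. The E-box was found 4 times in *Cdk4* and 1 time in *Cdk6*, against 6.02% of all windows, and the AP-1 and CRE letters (4.46% and 1.55% of all windows) were in none of the 7. These are matches of letters and no measure of binding.

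Signals are given as the log2 ratio of the processed intensity to the 75th percentile of its array, so that 0 is the 75th percentile and a difference of 1 is a doubling. On the 8 arrays that percentile was between 1335 and 1899 intensity units, 69.7 to 73.5% of probes were well above background, and arrays correlated at 0.994 to 0.998 within a group and at 0.978 to 0.984 between groups. All control arrays were on 1 slide and in 1 scan, and all HX630 arrays on another, so a difference of slide or scan and one of treatment cannot be told apart in any comparison. Of 6 corticotroph markers, all 6 were detected, and their summed level was 301 to 376 times the 75th percentile in the controls and 218 to 228 times with HX630. *Pomc*, the ACTH precursor, was lower by 0.45 on the log2 scale (SE 0.0856, limma adjusted p = 0.00241) and *Tbx19*, a corticotroph transcription factor, by 0.37 (SE 0.0518, limma adjusted p = 0.000506). The other 4 corticotroph markers, named after their values were seen, moved in both directions. *Pcsk1*, a protease that cleaves the ACTH precursor, was called lower (-2.06, limma adjusted p = 1.26e-07) and *Pitx1* was lower by 0.32 (limma adjusted p = 0.000407). *Neurod1* (0.72, limma adjusted p = 0.000143) and *Crhr1*, the CRH receptor (1.11, limma adjusted p = 5.12e-07), were called higher, each on both of its probes. Most marker lists of other cells were low: 3 of 4 somatotroph or lactotroph markers were detected (summed 0.0504 to 0.0817 in the controls and 0.0546 to 0.0653 with HX630, with *Prl* never detected), 1 of 4 gonadotroph or thyrotroph markers (0.0955 to 0.211 and 0.135 to 0.163, *Tshb* never), 3 of 5 fibroblast markers (0.0892 to 0.106 and 0.106 to 0.145, *Lum* and *Pdgfra* never) and 3 of the 3 immune markers with a probe, of 4 listed (0.171 to 0.202 and 0.122 to 0.157). Of 3 endothelial markers 2 were detected (2.7 to 3.35 and 2.15 to 2.63), and *Cdh5* never was. Most of this sum came from the brighter probe of *Kdr*, with a control mean of 1.54 on the log2 scale. The other *Kdr* probe, spotted 10 times, had a control mean of -6.57, so the 2 probes disagree in level. The part of these markers in the changes of the G1 genes was not tested. In RNA from whole cultures, fewer cells that use a gene and less message per cell cannot be told apart.

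The 2 measured D-type cyclins fell, and the other 5 measured genes rose. With HX630, *Ccnd3* fell to 61.7% of control and *Ccne1* rose 1.69-fold, and these were the 2 genes past both thresholds of limma with Benjamini-Hochberg adjustment over all probes (adjusted p below 0.01 and a change above 1.5-fold, which is 0.585 on the log2 scale). This is 1 of 7 tested genes called higher, where 8.38% of all genes tested were, and 1 of 7 called lower, where 11.2% were. At an adjusted p below 0.01 with no threshold on the fold, 5 of the 7 rose (*Ccne1*, *Cdk2*, *Rb1*, *Cdc25a* and *Cdk4*), against 24.0% of all genes, and 2 fell (*Ccnd3* and *Ccnd1*), against 27.2%. The control and HX630 arrays did not overlap for 7 of 7 genes on their brightest probe, against 61.5% of all genes. The median change of the 7 was 0.32 on the log2 scale, beside -0.034 for all genes. Scaling to spike-in probes moved the median of all genes to 0.19. Relative to the median of all genes, the 7 changes ran from -0.66 for *Ccnd3* to 0.79 for *Ccne1* in both scalings. This sameness was fixed in advance, because each of these scalings shifts all genes of an array by the same amount, so it is no test of the scaling. For each of these 7 brightest probes the exact two-sided permutation test gave p = 0.0286, the smallest that 70 regroupings of 8 arrays can give.

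**Figure D1:**
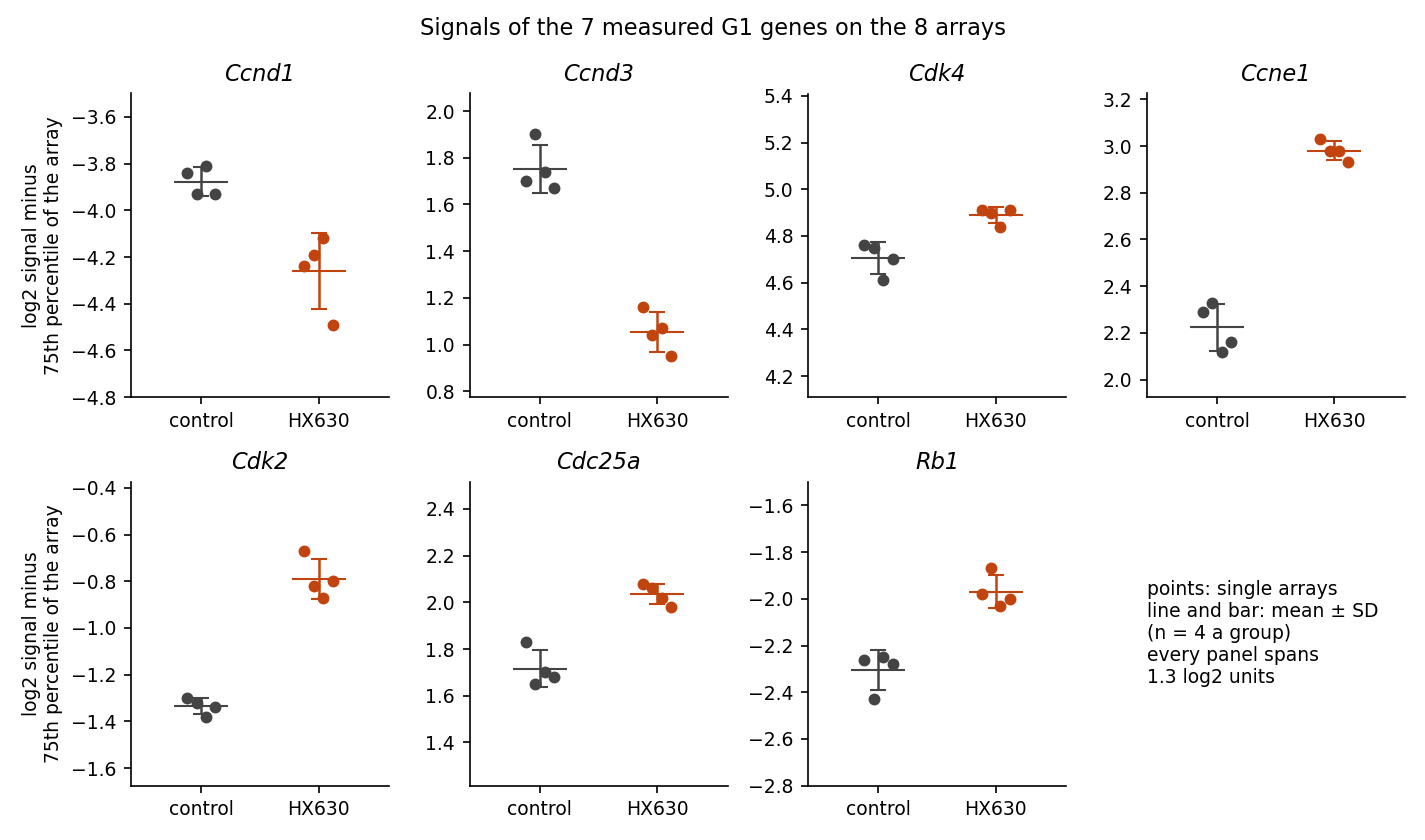
Signal (y axis, log2 relative to the array's 75th percentile) on the 4 control and 4 HX630 arrays for the brightest probe of each of the 7 measured genes, with points for arrays, lines for group means and bars for SD. The HX630 points of *Ccnd1* and *Ccnd3* lie under all control points, and those of *Cdk4*, *Ccne1*, *Cdk2*, *Cdc25a* and *Rb1* lie above them.

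*Ccnd3* encodes cyclin D3, and its message fell in every HX630 sample. On its brighter probe (A_55_P2041075, NM_001081636) the controls gave signals of 1.7, 1.9, 1.74 and 1.67 (1.75 ± 0.103, SD, n = 4). The HX630 samples gave 1.16, 1.04, 1.07 and 0.95 (1.06 ± 0.0893, SD, n = 4). Every HX630 value was thus under every control value, with a gap larger than the range within either group. The change was -0.7 on the log2 scale (SE 0.0663, 95% interval -0.85 to -0.54, limma adjusted p = 5.72e-05). A second probe (A_51_P238448, NM_007632) gave 0.42, 0.55, 0.42 and 0.43 in the controls and -0.062, -0.11, -0.085 and -0.2 with HX630. This probe also separated the groups, and its change of -0.57 (SE 0.0479, limma adjusted p = 2.84e-05), to 67.3% of control, stayed just under the 1.5-fold threshold. With spike-in scaling the change on the brighter probe was -0.48 (limma adjusted p = 0.000232), which is under the fold threshold.

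*Ccnd1*, which encodes cyclin D1, fell less and was measured on a dim probe (A_66_P111562, NM_007631). The controls gave -3.84, -3.93, -3.81 and -3.93 (-3.88 ± 0.0577, SD, n = 4) and the HX630 samples -4.24, -4.19, -4.12 and -4.49 (-4.26 ± 0.16, SD, n = 4). The groups did not overlap, and replicate 4 of HX630 was the lowest. The change was -0.38 (SE 0.0802, 95% interval -0.57 to -0.2, limma adjusted p = 0.00401), to 76.6% of control. It did not reach 1.5-fold, and the limma adjusted p exceeded 0.01 when control replicate 1 (0.0107), control replicate 3 (0.0132) or HX630 replicate 1 (0.0101) was left out. The same held with median scaling (-0.3, limma adjusted p = 0.0115) and spike-in scaling (-0.16, limma adjusted p = 0.0637).

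*Ccnd2*, the gene for cyclin D2, was not measured above background in either group, nor were *Ccne2*, for cyclin E2, and *Cdk6*. The probe of *Ccnd2* (A_52_P53906, NM_009829) was well above background on 1 of the 8 arrays, HX630 replicate 1, with intensities of 6.71 to 17.4 in the controls and 10 to 22 with HX630. The probe of *Ccne2* gave 3.06 to 3.8 in the controls and 2.97 to 4.19 with HX630, and that of *Cdk6* 3.63 to 4.98 and 3.84 to 5.5. Neither was well above background on any array, where the dimmest probe that was had an intensity of 8.92 to 18.1. No fold is given for these 3 genes, and a low message and a probe that reads poorly cannot be told apart.

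**Figure D2:**
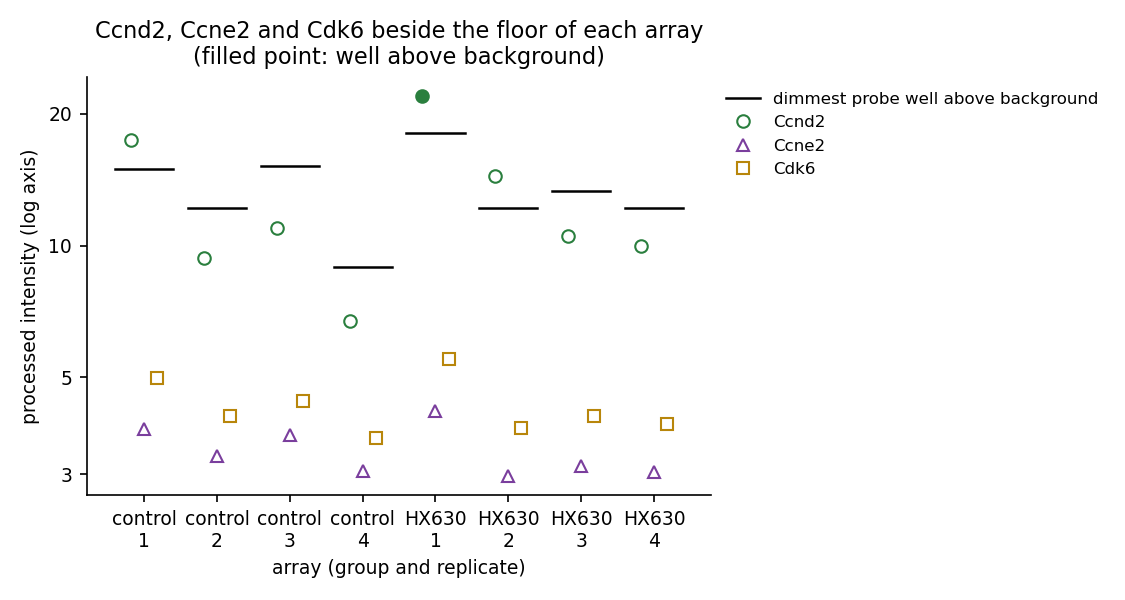
Processed intensity (y axis, log scale) of the probes of *Ccnd2*, *Ccne2* and *Cdk6* on each array (x axis), with filled points where the probe was well above background and a line at the dimmest probe of the array that was. *Ccne2* and *Cdk6* lie under the line on all 8 arrays, and *Ccnd2* lies on both sides of it, with 1 filled point at HX630 replicate 1.

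*Cdk4*, the kinase partner of the D-type cyclins, was read by 3 probes of NM_009870 and changed little in the scaling used here. The brightest (A_55_P2163143) gave 4.76, 4.75, 4.61 and 4.7 in the controls and 4.91, 4.9, 4.84 and 4.91 with HX630. The groups did not overlap, and the rise was 0.18 (SE 0.0427, 95% interval 0.082 to 0.28, limma adjusted p = 0.00736), or 1.13-fold. The probe A_55_P2166639 gave 3.65, 3.63, 3.62 and 3.71 against 3.78, 3.83, 3.84 and 3.78, a rise of 0.15 (SE 0.0355, limma adjusted p = 0.00773). On the third probe (A_55_P1998188) the groups overlapped, with 4.18, 4.19, 4.01 and 4.17 in the controls and 4.2, 4.19, 4.17 and 4.19 with HX630. Its difference of 0.047 (SE 0.0475, 95% interval -0.063 to 0.16) did not pass the test (limma adjusted p = 0.426, exact two-sided permutation p = 0.314). A rise above 1.5-fold lay outside the intervals of these probes, and the adjusted p of the brightest exceeded 0.01 when any array but control replicate 1 was left out (up to 0.024). The rise of the brightest probe was larger with quantile normalization (0.33, limma adjusted p = 0.000652) and with spike-in scaling (0.4, limma adjusted p = 0.00026).

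*Ccne1*, for cyclin E1, rose most of the G1 genes measured here. Its brighter probe (A_51_P408946, NM_007633) gave 2.29, 2.33, 2.12 and 2.16 in the controls (2.23 ± 0.0998, SD, n = 4) and 3.03, 2.98, 2.98 and 2.93 with HX630 (2.98 ± 0.041, SD, n = 4). The lowest HX630 sample was above the highest control by more than the whole range of either group. The rise was 0.75 (SE 0.0549, 95% interval 0.63 to 0.88, limma adjusted p = 1.28e-05). A dimmer probe of the gene (A_66_P125327) gave -2.53, -2.59, -2.58 and -2.68 against -1.87, -1.94, -2.04 and -1.95. It rose by 0.65 (SE 0.0483, limma adjusted p = 1.49e-05), or 1.57-fold, so that both probes were called. No setting tried here took the rise on the brighter probe under 0.7, and it was called in all but the one that asked for 2-fold.

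*Cdk2*, the kinase partner of cyclin E, rose beside it and came near the fold threshold. Its probe (A_55_P2011852, NM_183417) gave -1.3, -1.32, -1.38 and -1.34 in the controls and -0.67, -0.82, -0.87 and -0.8 with HX630. The controls lay close together and all HX630 samples above them, with replicate 1 the highest. The rise was 0.54 (SE 0.0485, 95% interval 0.43 to 0.66, limma adjusted p = 4e-05), or 1.46-fold. It was called with median scaling (0.63) and with spike-in scaling (0.76).

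*Cdc25a*, the phosphatase that activates Cdk2, also rose. Its probe (A_65_P05252, NM_007658) gave 1.83, 1.65, 1.7 and 1.68 in the controls (1.72 ± 0.081, SD, n = 4) and 2.08, 2.06, 2.02 and 1.98 with HX630 (2.04 ± 0.0458, SD, n = 4). The highest control, replicate 1, stayed under the lowest HX630 sample. The rise was 0.32 (SE 0.0492, 95% interval 0.2 to 0.43, limma adjusted p = 0.000827), or 1.25-fold.

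*Rb1*, which restrains E2F, rose to a like degree. Its probe (A_51_P136888, NM_009029) is spotted 10 times on each array, and the spots of an array had an SD of 0.0588 to 0.0886. The controls gave -2.26, -2.43, -2.25 and -2.28 and the HX630 samples -1.98, -1.87, -2.03 and -2. The groups did not overlap, and replicate 2 was the lowest control and the highest HX630 sample. The rise was 0.33 (SE 0.0551, 95% interval 0.21 to 0.46, limma adjusted p = 0.0012), or 1.26-fold. The adjusted p exceeded 0.01 with normexp background correction (0.24, limma adjusted p = 0.0256) and narrowly with the replicate number as a block (limma adjusted p = 0.0103). These arrays measure message only, and the phosphorylation of Rb1, by which the cyclin kinases act on it, was not measured.

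**Figure D3:**
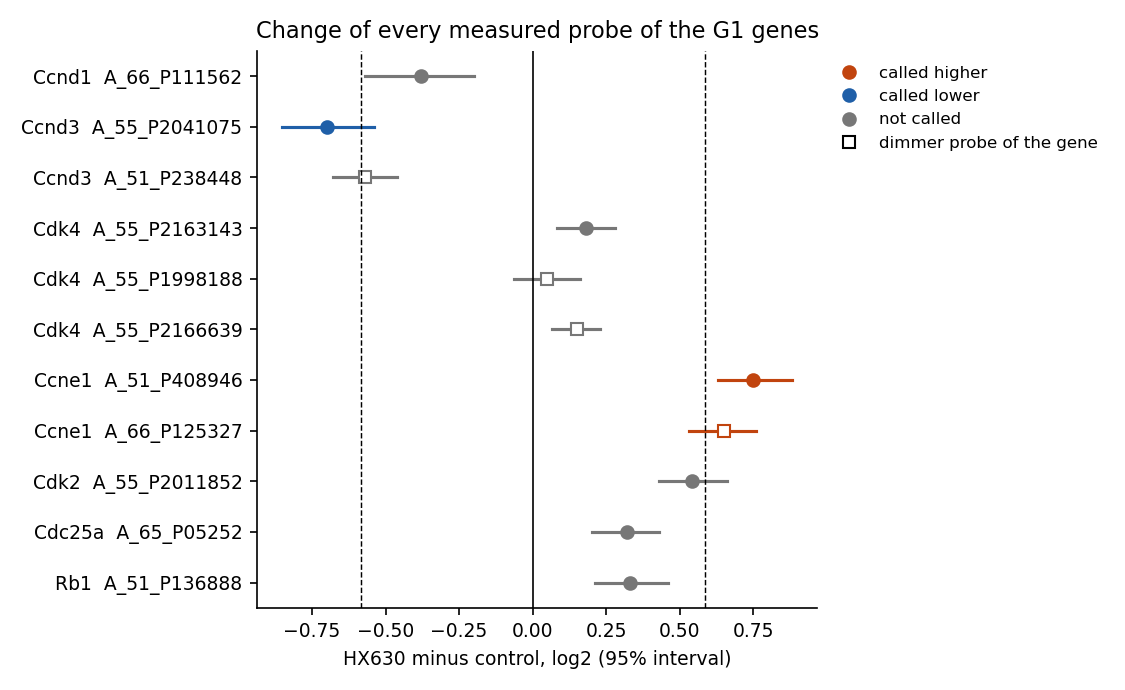
Change with HX630 (x axis, log2, with 95% intervals from limma) of the 11 tested probes, with open squares for the dimmer probes of a gene and dashed lines at 1.5-fold. Both probes of *Ccne1* are called higher, the brighter probe of *Ccnd3* is called lower, and the interval of *Cdk4* A_55_P1998188 includes 0.

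The change within each array does not depend on scaling by a constant, and 5 pairs of related genes had been chosen for it. Of these, 4 held a gene that was not above background, which left *Ccnd1* minus *Ccnd3*. This difference was -5.63 ± 0.134 in the controls (SD, n = 4) and -5.32 ± 0.123 with HX630 (SD, n = 4). *Ccnd3* thus fell by 0.31 more than *Ccnd1* on the log2 scale (exact two-sided permutation p = 0.0286, the smallest possible), but with normexp background correction the change was 0.17 and the groups overlapped (exact two-sided permutation p = 0.286). Other pairs were looked at after the values were seen and are described with no test. *Ccne1* minus *Ccnd3* was 0.38 to 0.59 in the controls and 1.87 to 1.98 with HX630, a shift of 1.45, so that the ratio of the E1 to the D3 signal rose 2.74-fold. *Ccne1* minus *Ccnd1* went from between 5.94 and 6.25 to between 7.1 and 7.42, a shift of 1.14 or 2.2-fold. *Cdk2* minus *Cdk4* shifted by 0.36, or 1.28-fold. These differences come from separate probes, so only their shifts, and not their sizes, compare the genes.

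The CDK inhibitors bind these kinases and restrain them, and they moved in both directions. Of 7 listed genes 6 were tested, of which 2 were called higher and 1 lower (8.38% and 11.2% of all genes), and 4 rose and 1 fell at an adjusted p below 0.01 with any fold (24.0% and 27.2% of all genes), with a median of 0.28. *Cdkn1a*, which encodes p21, an inhibitor of Cdk2, fell from 2.93, 3.08, 2.92 and 3.02 in the controls to 2.12, 2, 2.08 and 2.04 with HX630. This change of -0.93 (SE 0.0494, limma adjusted p = 2.38e-06), to 52.5% of control, was called on its other probe too (-1.78, limma adjusted p = 8.08e-06). *Cdkn2c*, for p18, and *Cdkn2b*, for p15, both inhibitors of Cdk4 and Cdk6, rose by 0.71 (SE 0.0451, limma adjusted p = 6.06e-06) and 0.66 (SE 0.052, limma adjusted p = 1.93e-05).

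The Rb-like proteins, E2F factors and DP partners carry the signal from Rb1 to DNA. Of 12 listed genes 11 were tested, with 1 called in each direction (8.38% of all genes higher and 11.2% lower), 6 higher and 1 lower at an adjusted p below 0.01 with any fold (24.0% and 27.2% of all genes), and a median of 0.17. With spike-in scaling 4 of the 11 were called higher, against 16.3% of all genes, and 0 lower, against 1030 of 15319 genes. The number called higher was also 4 with median scaling, where 1708 of all genes were. It was 3 with quantile normalization (1612 of all genes) and 3 with normexp background correction (941 of all genes). *E2f7*, a repressor of E2F targets, rose from 0.92, 0.78, 0.76 and 0.76 to 1.74, 1.72, 1.66 and 1.69, a change of 0.9 (SE 0.0462, limma adjusted p = 2.05e-06). A second, dimmer probe of *E2f7* gave 0.1 (limma adjusted p = 0.445), so its probes disagree. *Tfdp2*, a DP partner of E2F, was called lower by 0.79 (SE 0.0488, limma adjusted p = 5.34e-06), and -0.57 with spike-in scaling was no longer past 1.5-fold. Its second probe gave -0.55 (68.3% of control, limma adjusted p = 9.16e-06), which is under the fold threshold.

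Genes driven by E2F at the passage into S phase are read here as the targets of this pathway. All 20 listed genes were tested, and 3 were called higher and 0 lower (8.38% and 11.2% of all genes), with 16 higher and 0 lower at an adjusted p below 0.01 with any fold (24.0% and 27.2% of all genes). At an unadjusted limma p below 0.05, 16 were higher and 1 lower (31.6% and 36.4% of all genes), and the median was 0.33, beside -0.034 for all genes. *Cdc6*, which loads the replicative helicase, rose from -2.77, -2.7, -2.82 and -2.79 to -1.29, -1.34, -1.33 and -1.35. Its rise of 1.44 (SE 0.0372, limma adjusted p = 1.33e-07) was the largest of the list. *Pola1*, the catalytic subunit of DNA polymerase alpha, rose by 0.67 (SE 0.0467, limma adjusted p = 1.02e-05). With spike-in scaling 8 of the 20 were called higher, against 16.3% of all genes.

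The list of later cyclins, kinases and phosphatases holds genes that act from S phase to mitosis. It also holds *Ccnh*, *Cdk7* and *Mnat1*, whose action is not limited to those phases, and 12 of 12 genes were tested. Of these 2 were called higher and 0 lower (8.38% and 11.2% of all genes), and 7 rose and 2 fell at an adjusted p below 0.01 with any fold (24.0% and 27.2% of all genes). At an unadjusted limma p below 0.05 there were 8 and 2 (31.6% and 36.4% of all genes), and the median was 0.35. The 2 called genes, *Wee1* (0.61, SE 0.0349, limma adjusted p = 3.45e-06) and *Pkmyt1* (0.6, SE 0.0334, limma adjusted p = 2.97e-06), encode kinases that place inhibitory phosphates on Cdk1, and both lay just past the fold threshold. With spike-in scaling 6 of the 12 were called higher, against 16.3% of all genes. The 2 that fell at an adjusted p below 0.01 were *Cdk7* (-0.42, limma adjusted p = 1.64e-05) and *Ccnh* (-0.25, limma adjusted p = 0.00275). *Ccnb1* counted as higher on its brightest probe (0.19, limma adjusted p = 0.00849), but its dimmer probes gave -0.14 and -0.16, so its probes disagree.

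Genes for the turnover of G1 cyclins, which mark these proteins for destruction, gave no call in either direction with limma among 10 tested on their brightest probes. Over all genes 8.38% were called higher and 11.2% lower, and a list of 10 with no call lies near these shares. At an adjusted p below 0.01 with any fold, 2 were higher and 3 lower (24.0% and 27.2% of all genes). The numbers were the same at an unadjusted limma p below 0.05 (31.6% and 36.4% of all genes). Their changes ran from -0.35 to 0.41 with a median of 0.04. Of the probes of *Gsk3b*, a kinase that marks cyclin D1 for destruction, named after its values were seen, the brightest gave 0.41, A_51_P514412 gave 0.39 and A_66_P104190 gave 0.75 (limma adjusted p = 1.94e-06), which is past the fold threshold, so its probes disagree. With spike-in scaling 1 of the 10 genes was called higher, against 16.3% of all genes.

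Factors that act on D cyclin transcription had 0 genes called higher and 3 called lower among 16 tested (8.38% and 11.2% of all genes). At an adjusted p below 0.01 with any fold 3 were higher and 6 lower (24.0% and 27.2% of all genes), and the numbers were the same at an unadjusted limma p below 0.05 (31.6% and 36.4% of all genes). The median was -0.014, which became 0.073 with median scaling and 0.21 with spike-in scaling, as all genes shifted. *Fos*, a subunit of AP-1, fell from -0.9, -1.09, -1.13 and -1.04 to -3.24, -3.74, -3.65 and -3.65, a change of -2.53 (SE 0.112, limma adjusted p = 9.8e-07), to 17.3% of control. *Fosl1*, another AP-1 subunit, gave -5.31, -5.55, -5.68 and -5.52 in the controls and -6.99, -6.95, -7.21 and -6.52 with HX630, where it was well above background on 1 of the 4 arrays. It passed the filter on dim probes through the controls, so it had to differ, and no fold is given for it although the counts of this list include it. *Myc*, a transcription factor known to raise *Ccnd2* and *Cdk4*, was lower by 0.65 (SE 0.0474, limma adjusted p = 1.27e-05), and it was under the fold threshold with median scaling (-0.56), spike-in scaling (-0.43) and normexp (-0.49).

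**Figure D4:**
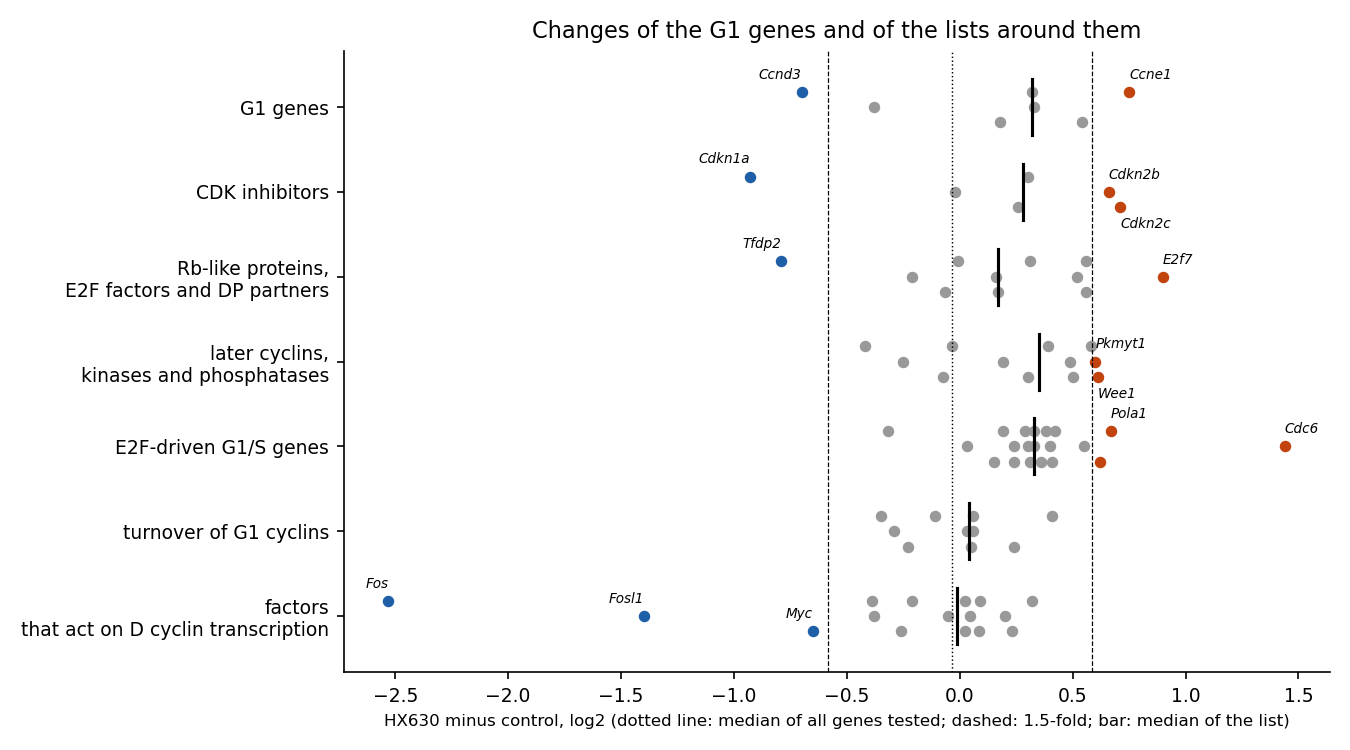
Change with HX630 (x axis, log2) of every tested gene of the G1 genes and of the 6 lists around them (rows), with red points for genes called higher, blue for genes called lower and grey for the rest, vertical spread within a row only for legibility, and a bar at the median of each list. Most E2F-driven G1/S genes lie right of the dotted line at the median of all genes (-0.034), while *Fos* lies far to the left.

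**Figure D5:**
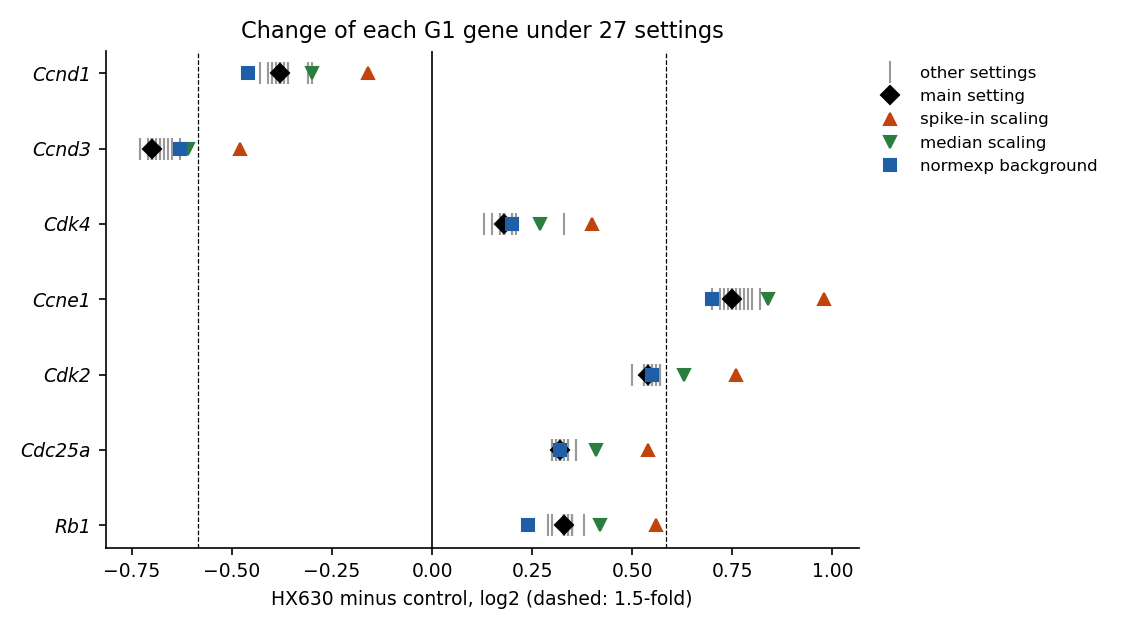
Change with HX630 (x axis, log2) of each of the 7 measured G1 genes (rows) in the main setting and under 26 alternatives of scaling, background, filter, test and left-out arrays. No gene crosses 0, *Ccnd3* ranges from -0.73 to -0.48 and *Ccne1* from 0.7 to 0.98. Alternatives that alter only the test, the threshold or the block repeat the main value.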

How the data were processed

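Total RNA of 8 AtT20 samples was hybridized to 1-color Agilent arrays. The authors deposited the spot intensity of each array from Feature Extraction (version 10.7.3.1 in the submitters' processing notes), in which the processed signal is background-subtracted, with no scaling between arrays. They also deposited a table of log2 values, which on comparison with the arrays proved to be log2 processed signals with the 75th percentile of the same array taken off. It served as an alternative. The sources used here state no correction for multiple tests, and name 1.5-fold and a p of 0.01 as criteria.

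The software was limma 3.58.1 under R 4.3.3. Control spots (1377 of 44397 on each array) and outlier spots were left out. Log2 processed signals were reduced by the 75th percentile of the array and averaged for each of 39429 probes. Probes well above background on at least 4 of 8 arrays (28552) were tested with lmFit and eBayes, with Benjamini-Hochberg adjustment over all of them, with calls where the adjusted p was under 0.01 and the change over 1.5-fold. Accessions paired 26055 probes with symbols of GRCm38.p6, and the brightest tested probe represented a gene. Named genes were all 10 G1 genes, up to 3 called genes with the largest change from each list, and *Pomc* and *Tbx19*, of which 1 is not reported here. The other markers, *Gsk3b*, *Ccnh*, *Cdk7*, *Mnat1* and *Ccnb1* were named after their values were seen. Members and lists were chosen with earlier results of these data known. Replicate numbers were not taken as pairs and served as a block only in an alternative. Whether they pair the samples is not known. Alternatives covered scaling, background, filters, tests, thresholds and each array left out. The code was tested on simulated data. The number of arrays limits the precision.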

Additional observations from a re-analysis of the deposited data

Results flagged for a closer look

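In groups of 4 arrays, an array was singled out where its gap to the nearest other value, divided by the whole range of the group, was above Dixon's critical value. Of 54 groups examined 6 had such an array, and chance alone would give 2.7.

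For the dimmer probe of *Ccnd3* (A_51_P238448), control replicate 2 stood apart (0.55 against 0.42 to 0.43, gap over range 0.865). For *Cdk4*, HX630 replicate 3 stood apart on the probe A_55_P2163143 (4.84 against 4.9 to 4.91, gap over range 0.866) and control replicate 3 on the probe A_55_P1998188 (4.01 against 4.17 to 4.19, gap over range 0.896). For *Rb1*, control replicate 2 was low (-2.43 against -2.28 to -2.25, gap over range 0.845). For *E2f7*, control replicate 1 was high (0.92 against 0.76 to 0.78, gap over range 0.896). Over all tested probes, control replicate 1 had a lower mean correlation with its own group than the other controls (0.9946 against 0.9962 to 0.9963, gap over range 0.946). None of these arrays, left out in turn, moved a G1 gene, on its brightest probe, across the 1.5-fold threshold.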

How the results depend on the processing

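Of 26 alternatives, none turned the direction of a G1 gene. The eBayes options, the t-tests, the changed thresholds and the replicate block leave a log2 change as it is, so they could not turn it. The filters on dim probes also left these changes the same. In the main setting 1 gene was called higher, 1 lower, and 2 were lower at an adjusted p below 0.01 with any fold. With median scaling and with spike-in scaling, 2 were called higher (*Ccne1* and *Cdk2*) and 1 was lower with any fold. With spike-in scaling and with the 2-fold threshold, 0 were called lower, and with the 2-fold threshold 0 were called higher. Over all 15319 genes tested, calls higher went from 1284 to 1708 with median scaling and to 2501 (16.3%) with spike-in scaling. Calls lower over all genes went from 1709 to 1414 and to 1030. The 2-fold threshold gave 477 higher and 729 lower. With 1 array left out, the number lower with any fold was between 1 and 2, and *Ccnd1* was the one lost. The number higher with any fold went from 5 to 4 without any array but control replicate 1 (*Cdk4* lost), and also with normexp, no filter on dim probes, the mean of all probes and the replicate block. With normexp, the unequal change of *Ccnd1* and *Ccnd3* was 0.17 (exact two-sided permutation p = 0.286). The spike-in scaling rests on 8 probes and shifted all genes upward.

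The share of calls that were higher over all genes was 42.9% (1284 higher, 1709 lower), and it was 70.8% with spike-in scaling (2501 and 1030) and 54.7% with median scaling. The 2-fold threshold left 477 and 729 genes. The replicate block gave 1334 and 1779 genes and kept 1 G1 gene called higher and 1 lower, while *Rb1* passed to an adjusted p of 0.0103 (limma), leaving 4 higher with any fold. Same-numbered arrays deviated together weakly (r from -0.009 to 0.523), and 2 of 4 controls and 3 of 4 HX630 arrays correlated best with their own number. Since not every pair was above 0.1, the numbers were not taken as pairs. A slide block could not be fitted because no slide held both groups. The number of arrays and, for *Ccnd1*, the dimness of the probe limit the precision, and *Ccnd2*, *Ccne2* and *Cdk6* were not measured well above background on enough arrays to be tested.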
